A study of Mus musculus with 9 samples.

Results

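The windows described here carried chromatin immunoprecipitation (ChIP-seq) signal in betaTC3 cells and next to none in alphaTC1 cells. A window was taken when each of the 4 alphaTC1 libraries held at most 10 scaled reads in it and both betaTC3 libraries held at least 50, which chose 1136 of the 17641 windows in the authors' table (6.44%). A scaled read is a read multiplied by 1 factor per library, set by the authors. Because these 6 values chose the members, their levels are given as a description with no test. The study immunoprecipitated chromatin with an Active Motif antibody labelled H3K9me3 (histone H3 trimethylated at lysine 9) in murine pancreatic endocrine cell lines, with 2 libraries and 1 input sample in each of 3 groups. The groups were alphaTC1, an alpha cell line, transduced with empty vector and kept for 5 days; alphaTC1 transduced with Smndc1 shRNA, against a splicing factor, for the same 5 days; and betaTC3, a beta cell line with treatment none. Both alphaTC1 groups were thus transduced and betaTC3 was not, so transduction and cell line cannot be told apart in any difference between the lines. Each cell type is represented by a single line, and the labels do not say that replicates were separate cultures.

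Libraries held 4530066 to 9924487 reads in windows. Marker genes followed the line labels. At Gcg, which encodes glucagon, the 4 alphaTC1 libraries held 340.3, 352, 352 and 421 scaled reads and both betaTC3 libraries 0. The alpha cell factor Irx1 held 1152, 1189.6, 969.9 and 1270.4 in alphaTC1 and 0.799 and 0 in betaTC3. H3K9me3 is a mark of silent heterochromatin, whereas 65.9% of all windows lay within 1 kb of a gene start. A hormone gene of each line was also marked in that line, Gcg in alphaTC1 and Ins1 in betaTC3. The libraries are therefore called by their label, and a marked window is not read here as a silent one.

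Alpha and beta cells of the islet share a developmental origin and most of their secretory machinery. Beta cells are set apart by factors such as PDX1 and MAFA, by insulin, and by a glucose sensing system, and they carry receptors for incretins, fatty acids and somatostatin on their surface. Promoters fall broadly into those rich in CpG dinucleotides, typical of widely used genes, and those poor in CpG, typical of tissue-restricted genes.

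Promoters at the members included both kinds, and these examples show the contrast. RefSeq promoters (GRCm38.p6, which is the mm10 build of the files) are printed for 4 starts with few and 4 with more CG dinucleotides, from 250 bases before to 50 after the start, 5′ to 3′ on the gene's strand. Capitals mark every CG dinucleotide.
Ins1 (chr19:52264047-52264346, + strand): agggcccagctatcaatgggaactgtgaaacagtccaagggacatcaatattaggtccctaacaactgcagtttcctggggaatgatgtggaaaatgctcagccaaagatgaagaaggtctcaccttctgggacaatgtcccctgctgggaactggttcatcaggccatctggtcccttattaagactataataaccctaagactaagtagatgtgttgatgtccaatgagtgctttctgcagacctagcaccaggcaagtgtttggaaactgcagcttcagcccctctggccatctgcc
Kif12 (chr4:63172082-63172381, - strand): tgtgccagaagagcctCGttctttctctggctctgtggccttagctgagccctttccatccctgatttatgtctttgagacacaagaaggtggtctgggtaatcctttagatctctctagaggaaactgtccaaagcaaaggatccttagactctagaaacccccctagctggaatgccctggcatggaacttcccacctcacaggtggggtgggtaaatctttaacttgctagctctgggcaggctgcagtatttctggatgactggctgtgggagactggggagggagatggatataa
Slc2a2 (chr3:28697653-28697952, + strand): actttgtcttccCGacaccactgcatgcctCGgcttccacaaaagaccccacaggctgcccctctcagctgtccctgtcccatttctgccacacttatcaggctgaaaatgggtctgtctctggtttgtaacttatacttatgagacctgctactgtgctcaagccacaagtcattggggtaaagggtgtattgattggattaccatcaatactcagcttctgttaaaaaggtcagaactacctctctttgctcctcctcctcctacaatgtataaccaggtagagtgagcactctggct
Iapp (chr6:142298175-142298474, + strand): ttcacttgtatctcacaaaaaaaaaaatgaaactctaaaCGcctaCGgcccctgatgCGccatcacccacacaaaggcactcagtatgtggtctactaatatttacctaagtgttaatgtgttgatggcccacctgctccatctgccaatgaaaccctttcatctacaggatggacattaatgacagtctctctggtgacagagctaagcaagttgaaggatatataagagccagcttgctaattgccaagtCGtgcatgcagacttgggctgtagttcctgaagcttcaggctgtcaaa
Pcsk1 (chr13:75089607-75089906, + strand): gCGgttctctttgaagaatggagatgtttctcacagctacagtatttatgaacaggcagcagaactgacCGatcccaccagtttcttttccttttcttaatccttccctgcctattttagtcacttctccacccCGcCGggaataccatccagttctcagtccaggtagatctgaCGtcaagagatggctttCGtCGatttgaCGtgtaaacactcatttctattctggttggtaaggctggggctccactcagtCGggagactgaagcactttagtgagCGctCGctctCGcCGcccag
Npy (chr6:49822460-49822759, + strand): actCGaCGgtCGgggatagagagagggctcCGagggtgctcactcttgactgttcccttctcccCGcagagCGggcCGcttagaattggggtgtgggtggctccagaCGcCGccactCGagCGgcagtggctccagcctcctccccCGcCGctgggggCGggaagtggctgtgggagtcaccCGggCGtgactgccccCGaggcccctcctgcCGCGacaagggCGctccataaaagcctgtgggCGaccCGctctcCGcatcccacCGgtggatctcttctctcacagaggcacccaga
Glp1r (chr17:30901617-30901916, + strand): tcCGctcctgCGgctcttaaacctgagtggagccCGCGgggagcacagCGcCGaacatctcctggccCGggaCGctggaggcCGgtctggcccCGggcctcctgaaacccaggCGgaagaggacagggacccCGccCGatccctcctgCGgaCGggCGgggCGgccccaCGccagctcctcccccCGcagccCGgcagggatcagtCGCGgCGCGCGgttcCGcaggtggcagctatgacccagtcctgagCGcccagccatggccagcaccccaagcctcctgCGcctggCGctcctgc
Gna13 (chr11:109362544-109362843, + strand): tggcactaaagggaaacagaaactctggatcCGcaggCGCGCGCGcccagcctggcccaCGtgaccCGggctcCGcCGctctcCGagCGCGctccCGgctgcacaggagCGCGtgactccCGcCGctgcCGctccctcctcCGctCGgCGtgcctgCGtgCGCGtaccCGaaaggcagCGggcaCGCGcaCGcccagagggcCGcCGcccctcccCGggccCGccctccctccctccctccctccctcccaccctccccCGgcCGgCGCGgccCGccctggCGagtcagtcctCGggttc
Ins1, the insulin gene with its start on chromosome 19, held 0 CG dinucleotides in these 300 bases, Kif12 held 1, Slc2a2 held 2 and Iapp held 4. Pcsk1 held 13, Npy 24, Glp1r 29 and Gna13 40. GC content was 48.3% for Ins1, 49.3% for Pcsk1 and 76.7% for Gna13. Pcsk1 thus counts as CpG-poor by the definition given further below, which requires a GC content of at least 50%. The member windows themselves lay just downstream of these starts, with centres 95 bp (Glp1r) to 827 bp (Iapp) from them.

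The members spanned a wide range in betaTC3. Their mean betaTC3 level had a median of 117 scaled reads and ranged from 50.4 to 1900 (mean of 2 libraries). It was at least 500 in 74 members, at least 200 in 328 and under 100 in 483. In alphaTC1, 251 members were at 0 in all 4 libraries and 907 had no library above 5. Members held 2.76% and 3.04% of the reads in windows of the betaTC3 libraries and 0.0165% to 0.0250% of those of the alphaTC1 libraries. By limma, all 1136 were higher in betaTC3 than with the empty vector at an adjusted p below 0.05, beside 22.1% of all windows called higher and 55.2% called in either direction. By the rule, both betaTC3 libraries lay above all 4 alphaTC1 libraries in every member, beside 33.3% of all windows. Both counts use the values that chose the members and are not evidence about them.

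Pdx1, the pancreatic homeobox factor that activates insulin, had the second highest level of all members. Its window (chr5:147270320-147270720) held 5.30 and 0 scaled reads with the empty vector, 0 and 0 with the knockdown, and 1829 and 1840.5 in betaTC3 (1835 ± 8.29, mean ± SD, n = 2). Mlxipl, which encodes the carbohydrate-responsive factor ChREBP (chr5:135106894-135107294), held 2.65 and 0, 1.19 and 1.40, and 1536 and 1455 in the same order. Meox2, a homeobox factor known from mesoderm (chr12:37108966-37109366), held 3.97 and 0, 0 and 0, and 1699 and 1694. In these 3 windows the betaTC3 values lay close together and no alphaTC1 library passed 5.30 scaled reads. The highest member of all was Ppp1r1a, an inhibitor of protein phosphatase 1 (chr15:103537480-103537880), with 9.27 and 2.66 and 0 and 0 in alphaTC1 and 1927 and 1873 in betaTC3.

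Genes of islet peptides, of their processing and release and of glucose uptake spread over a wide range of levels. Ins1 (chr19:52264569-52264969) held 1.32 and 0 scaled reads with the empty vector, 0 and 0 with the knockdown, and 354 and 314 in betaTC3. Iapp, which encodes the amyloid peptide released with insulin (chr6:142299052-142299452), held 7.94 and 1.78, 2.39 and 0, and 556 and 531. Npy, the gene of neuropeptide Y (chr6:49822723-49823123), held 3.97 and 0.888, 4.78 and 1.40, and 1213 and 1137. The 3 peptide genes thus differed among themselves by level in betaTC3, Npy being highest and Ins1 lowest, with no overlap between those 3 pairs of values. Pcsk1, the convertase that cuts proinsulin (chr13:75089975-75090375), held 1.32, 2.66, 0 and 0 scaled reads in the 4 alphaTC1 libraries and 628 and 639.5 in betaTC3. Slc2a2, the glucose transporter GLUT2 (chr3:28698466-28698866), held 0, 0, 2.39 and 0 and 97.4 and 129, the lowest level among these members at a gene start. Sytl4, which encodes the granule tethering protein granuphilin (chrX:133981346-133981746), held 0, 1.78, 0 and 0 and 745 and 768.

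**Figure D1:**
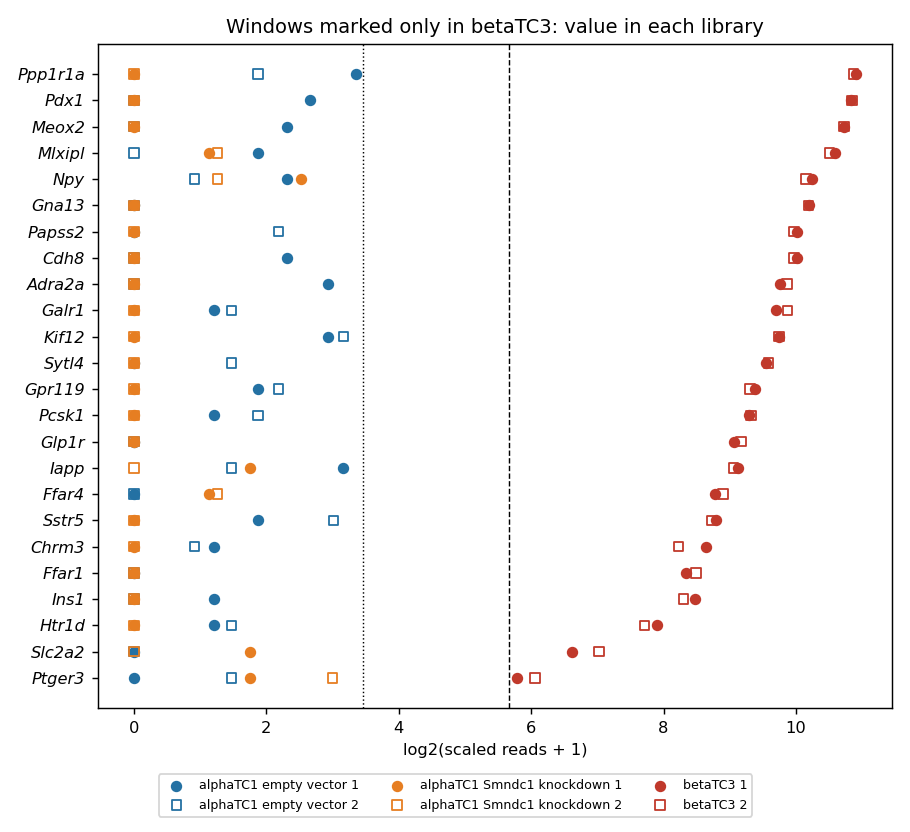
Scaled reads of each library, as log2(scaled reads + 1), at the 10 highest members within 1 kb of a gene start and at the reported members of the beta cell and receptor lists within 2 kb. Circles are library 1 and open squares library 2 of each group; the dotted and dashed lines are the limits of 10 and 50 scaled reads, and each gene has all alphaTC1 points left of the first and both betaTC3 points right of the second.

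The beta cell list named 28 gene symbols, of which 21 had a window assigned and others, such as Ins2, had none. It had 28 windows in the table, of which 12 in 10 genes were members (42.9%, exact 95% interval 24.5 to 62.8), beside 6.44% of all windows. The list's median log2 change from the empty vector to betaTC3 was 4.98, beside -0.13 for all windows. Other windows of the list did not meet the rule, for different reasons. The window 46645 bp from Prlr was marked only in alphaTC1, with 230.4, 276, 147 and 176 scaled reads there and 9.58 and 6.66 in betaTC3. The window at the start of Robo1 was marked in all libraries and lower in betaTC3, at 252 and 260 against 496 to 770 in alphaTC1. Mafa, the factor that activates insulin with PDX1, missed by 1 alphaTC1 library. Its window 1445 bp from the start held 11.9 and 0 scaled reads with the empty vector, 0 and 0 with the knockdown, and 1726 and 1269 in betaTC3. G6pc2, the islet glucose-6-phosphatase, held 29.1, 23.1, 15.5 and 6.99 in alphaTC1 and 325 and 425 in betaTC3. Pax4, a factor of beta cell development, held 0, 0, 1.19 and 4.19 and 49.5 and 49.5, under the betaTC3 limit by less than 1 scaled read. Nkx6-1 and Neurod1, factors shared with alphaTC1 in these data, held 698 to 1129 and 584 to 725 scaled reads at the start in the alphaTC1 libraries. The potassium channel subunits Abcc8 and Kcnj11 were likewise marked in every library, at 362 to 648 and 202 to 417.

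Receptors for peptides, nutrients and hormones made up the list with the largest share of members among those with at least 10 windows, 12 of 23 windows in 10 genes (52.2%, 30.6 to 73.2). Glp1r, which encodes the GLP-1 receptor, had 3 members in a row, which count in the beta cell list as well. The one at its start (chr17:30901762-30902162) held 0, 0, 0 and 0 scaled reads in alphaTC1 and 535 and 574 in betaTC3, and the pair 8616 and 9563 bp upstream held 55.1 and 70.4 and 137 and 137 in betaTC3. The start and upstream windows did not overlap in level. Ffar1 and Ffar4, receptors of free fatty acids, held 324 and 359 and 438 and 477 in betaTC3, with 0, 0, 0 and 0 and 0, 0, 1.19 and 1.40 in alphaTC1. Gpr119, a receptor of lipid amides (chrX:48673436-48673836), held 2.65, 3.55, 0 and 0 and 666 and 634. These 3 lipid receptors had no alphaTC1 library above 3.55 scaled reads.

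Receptors of neurotransmitters and of inhibitory peptides completed the list. Adra2a, the alpha-2A adrenoceptor that restrains insulin release (chr19:54045586-54045986), held 6.62, 0, 0 and 0 scaled reads in alphaTC1 and 869.7 and 931 in betaTC3. Galr1, a galanin receptor (chr18:82406344-82406744), held 1.32, 1.78, 0 and 0 and 833 and 935. Sstr5, a somatostatin receptor (chr17:25496837-25497237), held 2.65, 7.1, 0 and 0 and 441 and 423. The other members of the list were Chrm3, the muscarinic receptor of beta cells, at 349 ± 70.5 in betaTC3, the serotonin receptor Htr1d at 224 ± 21.5, and the prostaglandin receptor Ptger3 at 60.0 ± 8.03, near the limit. Gipr, the receptor of the other incretin, fell short of the rule with 0, 0, 0 and 0 in alphaTC1 and 41.5 and 36.2 in betaTC3. Npy1r and Mc4r had the opposite pattern and were at 198 to 252 and 74.1 to 112 in alphaTC1 against at most 3.99 in betaTC3. So did a window 46645 bp from Prlr, the prolactin receptor gene, with 230.4, 276, 147 and 176 and 9.58 and 6.66.

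**Figure D2:**
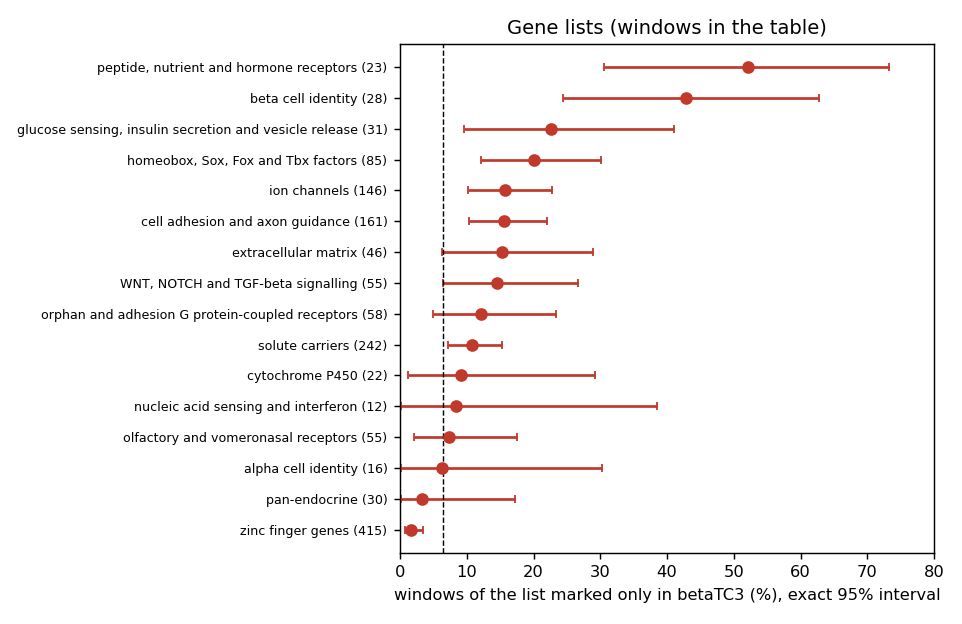
Share of the windows assigned to each gene list that are marked only in betaTC3, for the 16 lists with at least 10 windows (number of windows in parentheses), with exact 95% intervals that cover counting error only. The dashed line is the 6.44% of all windows; the receptor and beta cell lists lie farthest to the right and zinc finger genes farthest to the left.

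Secretion genes had members that also count in the beta cell list, such as Sytl4, and members beyond it. Of 31 windows of glucose sensing, insulin secretion and vesicle release genes, 7 were members (22.6%, 9.59 to 41.1) and 16 were marked in all libraries. They included Cplx2, a complexin that acts in vesicle fusion (chr13:54371498-54371898), with 1.32, 3.55, 0 and 0 scaled reads in alphaTC1 and 534 and 494 in betaTC3, and Rasgrf1, a Ras exchange factor (chr9:89910103-89910503), with 0, 0, 0 and 0 and 419 and 388. Genes of homeobox, Sox, Fox and Tbx factors had 17 members among 85 windows (exact 95% interval 12.1% to 30.1%). Among them were Lhx1 at 832 ± 3.44 scaled reads in betaTC3 and Nkx6-2 at 822 ± 109, factors of kidney and neural development, and no alphaTC1 library passed 1.78 in them.

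Surface and signalling families held between 10.7% and 15.8% of their windows as members, with intervals that reached down to 4.99% to 10.3%. Ion channel genes had 23 of 146 (15.8%, 10.3 to 22.7), led by the potassium channel interacting protein Kcnip1 at 579 ± 16.4 scaled reads in betaTC3, the calcium channel subunit Cacnb1 at 365 ± 19.4 and the potassium channel Kcnb2 at 347 ± 18.5. Cell adhesion and axon guidance genes had 25 of 161 (15.5%, 10.3 to 22.1), led by Cdh8, a cadherin, at 1016 ± 19.9, and the protocadherins Pcdh10 at 664 ± 68.0 and Pcdh17 at 544 ± 56.9. Extracellular matrix genes had 7 of 46 (15.2%, 6.34 to 28.9) and WNT, NOTCH and TGF-beta genes 8 of 55 (14.5%, 6.50 to 26.7). In the signalling list were Axin2, a feedback inhibitor of WNT signalling, with 1027 and 665 in betaTC3, Acvr1c, an activin receptor, with 367 and 338, and Jag1, a NOTCH ligand, with 327 and 250.3. Orphan and adhesion G protein-coupled receptors had 7 of 58 (12.1%, 4.99 to 23.3), with Gpr119 of the receptor list among them. Solute carriers had 26 of 242 (10.7%, 7.14 to 15.3), led by Slc16a12 at 513 ± 36.6.

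Zinc finger genes had 7 members among 415 windows (1.69%, 0.681 to 3.44), and 334 of their windows were marked in all libraries. Their highest member was Zfp125, a transcribed pseudogene, with 800.2 and 685 scaled reads in betaTC3. Its window overlapped called peaks in alphaTC1 lists, although the table gave 2.65, 1.78, 0 and 0 there. Nucleic acid sensing and interferon genes had a single member among 12 windows (8.33%, 0.211 to 38.5). This was Cgas, which encodes the sensor of cytosolic DNA (chr9:78442518-78442918), with 0, 0, 0 and 0 scaled reads in alphaTC1 and 473 and 409 in betaTC3.

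The marker lists of other cell types held 0 or 1 member each, among 1 to 30 windows. Lists this short cannot show whether their shares differ from the 6.44% of all windows. The exact intervals of the longest lists, alpha cell (0.158% to 30.2%) and pan-endocrine genes (0.0844% to 17.2%), both include that share. Alpha cell genes had 1 of 16 windows (6.25%), Ttr, the transthyretin gene, at 126 ± 5.24 scaled reads in betaTC3, and 5 of their windows were marked only in alphaTC1. Pan-endocrine genes had 1 of 30 (3.33%), the calcium binding protein gene Scgn. Genes of delta, PP and epsilon cells had 1 of 3, Sst, which encodes somatostatin, with 2.65, 0, 1.19 and 1.40 in alphaTC1 and 107 and 93.3 in betaTC3. Acinar and duct genes had 0 of 5 and stroma and endothelium genes 0 of 2. The immune list had 1 window, 6824 bp from Lyz2, which was a member at 91.8 ± 16.9. The summed level of the acinar and duct windows was 767 to 982 scaled reads in the alphaTC1 libraries and 108 to 118 in betaTC3, and that of the delta, PP and epsilon windows 215 to 311 and 312 to 325. The part of other cells in the members was not tested. Cytochrome P450 genes had 2 of 22 windows (9.09%), olfactory and vomeronasal receptor genes 4 of 55 (7.27%), none within 1 kb of a start, and keratin genes 0 of 2.

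About as many members lay near a gene start as away from one. Of the 1136 members, 569 lay within 1 kb of the start of the assigned gene (50.1%, exact 95% interval 47.1 to 53.0), 231 at 1 to 10 kb (20.3%) and 336 beyond 10 kb (29.6%, 26.9 to 32.3), with 30 beyond 100 kb. Of the 10781 windows with at least 50 scaled reads in all 6 libraries, 86.0% lay within 1 kb and 5.77% beyond 10 kb. The 482 windows with the reverse rule, marked only in alphaTC1, had 42.9% (38.5 to 47.5) and 35.3% (31.0 to 39.7). The median distance was 972 bp for members, 3272 bp for the alphaTC1-only windows and 321 bp for windows marked in all libraries. Neighbouring windows are not independent, so the intervals are a description and the differences were not tested.

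Near a start, the members lay mainly downstream. Among the 569 within 1 kb, 459 centres were downstream of the start (80.7%, 77.2 to 83.8), with a median offset of 221 bp, against 88.8% and 271 bp in windows marked in all libraries. The median level in betaTC3 was 141 scaled reads within 1 kb of a start, 107 at 1 to 10 kb and 100.4 beyond 10 kb. The quartiles of these 3 classes overlapped, at 82.0 to 272, 76.6 to 183 and 70.5 to 169.

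**Figure D3:**
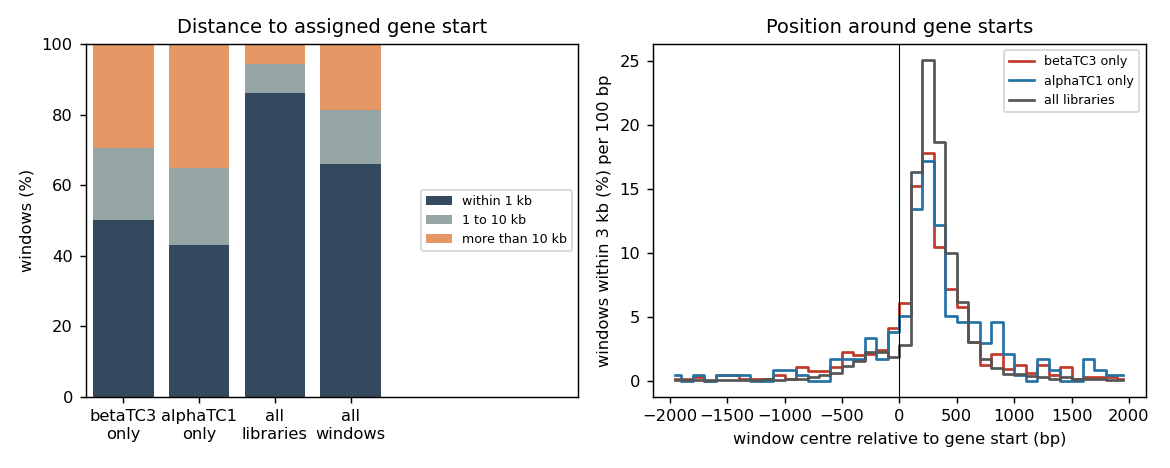
Left, windows (%) by distance from the window centre to the start of the assigned gene, for members, windows marked only in alphaTC1, windows marked in all libraries and all windows; 50.1% of members and 86.0% of windows in all libraries lie within 1 kb. Right, position of window centres around the start (negative is upstream) in steps of 100 bp, as a share of the windows within 3 kb; all 3 sets peak just downstream of the start.

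The assigned genes were protein coding for 696 members (61.3%, 58.4 to 64.1), against 85.7% of the windows marked in all libraries and 57.1% of the alphaTC1-only windows. By distance the share was 80.5% within 1 kb (77.0 to 83.7), 52.4% at 1 to 10 kb (45.7 to 59.0) and 34.8% beyond 10 kb (29.7 to 40.2). The next classes were lincRNA genes with 110 members, processed pseudogenes with 99, antisense genes with 63, genes of the class TEC, for transcripts not yet verified, with 41, miRNA genes with 31 and snRNA genes with 24. Processed pseudogenes were assigned at a median distance of 28608 bp, with 8 of 99 members within 1 kb, and no snRNA member lay within 1 kb. For members far from the assigned start, the assigned name does not show which start, if any, was marked. The highest snRNA member, assigned to Gm25881 at 7477 bp, lay 182 bp from a RefSeq start of Hnf4a.

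Some members were assigned to antisense genes, and these examples were taken from the highest of that class. Gm49544, an antisense gene (chr15:79028783-79029183, 371 bp from the start), held 0, 0, 0 and 0 scaled reads in alphaTC1 and 682 and 658 in betaTC3, and a RefSeq start of the histone gene H1f0 was 771 bp away. Igf2os, antisense at the growth factor gene Igf2 (chr7:142658484-142658884, 1009 bp), held 2.65, 5.33, 9.56 and 5.59 and 649 and 651, and its knockdown library 1 was close to the limit of 10. This window was nearer to a RefSeq start of Igf2 itself, at 120 bp. A ChIP window has no strand, so signal at an antisense gene and at its partner cannot be told apart.

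A miRNA hairpin of the RefSeq table lay within 5 kb of 19 members, 28 hairpins with 48 mature sequences in all. The data hold no RNA, so a window beside a hairpin says nothing of the miRNA's level. Mature sequences are printed for hairpins of well-known miRNAs and for those that share a seed (bases 2 to 8, in capitals).
miR-7a-5p (chr7:78888295-78888317, + strand): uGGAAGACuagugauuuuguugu
miR-148a-3p (chr6:51269829-51269850, - strand): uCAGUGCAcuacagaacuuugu
miR-9-5p (chr7:79505279-79505301, + strand): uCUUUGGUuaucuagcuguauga
miR-92b-3p (chr3:89227126-89227147, - strand): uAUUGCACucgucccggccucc
miR-92a-3p (chrX:52741854-52741874, - strand): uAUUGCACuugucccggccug
miR-363-3p (chrX:52741697-52741718, - strand): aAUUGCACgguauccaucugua
miR-106a-5p (chrX:52742541-52742563, - strand): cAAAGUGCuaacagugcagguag
miR-20b-5p (chrX:52742159-52742181, - strand): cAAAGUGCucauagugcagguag
The 3 mature sequences from Mir92b, Mir92-2 and Mir363 share the seed AUUGCAC, and those from Mir106a and Mir20b share AAAGUGC. Mir7-2, a source of miR-7, which is abundant in islet endocrine cells, had a member 2127 bp upstream (chr7:78885950-78886350) with 3.97, 0, 0 and 0 scaled reads in alphaTC1 and 456 and 457 in betaTC3. Mir148a had one 813 bp away with 3.97, 0, 2.39 and 1.40 and 323 and 301. Mir9-3, which lies within its window, had 0, 0, 0 and 0 and 121 and 106, and Mir92b had 0, 1.78, 0 and 2.80 and 101 and 130.4. Mir363, Mir92-2, Mir20b and Mir106a lie in 1 cluster on the X chromosome and share a single member, with 59.1 and 75.2 in betaTC3 and 0, 0, 0 and 0 in alphaTC1.

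Some distal members lay at starts that the assignment did not use. The highest beyond 10 kb was assigned to the pseudogene Gm11460, 75174 bp away (chr2:165741831-165742231), with 1.32, 2.66, 0 and 0 scaled reads in alphaTC1 and 708 and 762 in betaTC3. The second, assigned to Gm16057 (chr5:27049408-27049808), held 3.97, 0.888, 0 and 0 and 692 and 604, and its centre was 409 bp from a RefSeq start of Dpp6, an auxiliary subunit of potassium channels. In all, 35 of the 336 distal members (10.4%, 7.36 to 14.2) lay within 1 kb of a RefSeq start, beside 12.9% of all distal windows. Among them were alternative starts of Nfatc2, a calcium-responsive factor (308 and 344 in betaTC3), of Rap1gap, which inactivates the GTPase RAP1 (305 and 285), and of the nuclear factor I gene Nfix (158 and 188). For these 3 the alphaTC1 libraries held at most 2.65.

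Some genes had 1 start marked only in betaTC3 and another marked everywhere. Of 497 RefSeq genes with a member within 1 kb of a start, 24 also had a window with at least 50 scaled reads in all libraries within 1 kb of a start. Ank2, a membrane skeleton adaptor, had a member (chr3:127498683-127499083) with 0, 1.78, 0 and 0 in alphaTC1 and 363 and 359.7 in betaTC3. Its other window, 90351 bp away, held 531, 631, 483 and 558 and 430.4 and 456. Hspa12a, a member of the HSP70 family, had 3.97, 0.888, 1.19 and 6.99 and 722 and 718 at the member (chr19:58860581-58860981) and 450.1, 482, 311 and 351 and 156 and 151 at the window 82508 bp away. At that window the betaTC3 values lay below all alphaTC1 values, the reverse of the member. Prkar1b, a regulatory subunit of protein kinase A, had 3.97, 2.66, 0 and 1.40 and 802 and 652 at the member (chr5:139129301-139129701) and 740.1, 659.6, 349.97 and 544 and 1369 and 721 at the window 20909 bp away.

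CpG-rich and CpG-poor promoters were both common at the members. Of the 470 members within 1 kb of a RefSeq start, 257 had a CpG-rich promoter (54.7%, 50.1 to 59.2), defined by a ratio of observed to expected CpG of at least 0.6 and a GC content of at least 50%. The share was 79.9% in windows marked in all libraries and 47.0% (39.7 to 54.5) in those marked only in alphaTC1. The median ratio was 0.655, 0.812 and 0.581, while the median GC content was 62.3%, 62.7% and 58.3%. CpG-rich members had a median of 173 scaled reads in betaTC3 and CpG-poor members 121, with overlapping quartiles of 93.5 to 350 and 74.2 to 256.

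**Figure D4:**
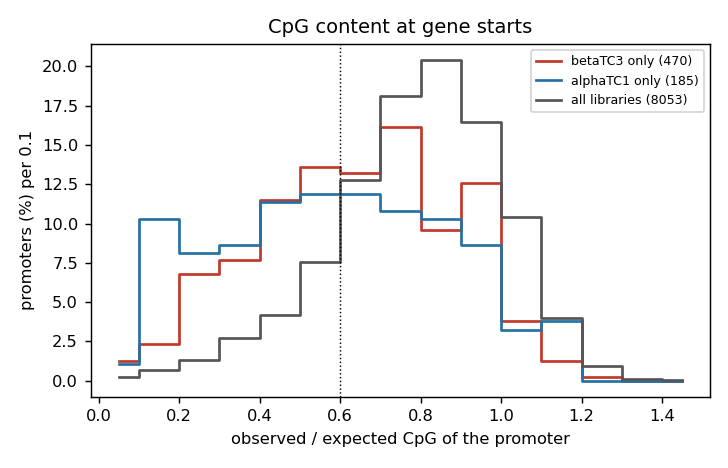
Ratio of observed to expected CpG of the RefSeq promoters at members, at windows marked only in alphaTC1 and at windows marked in all libraries (number of promoters in parentheses), as a share of each set per step of 0.1. The dotted line is 0.6; the median ratio is 0.655, 0.581 and 0.812.

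Short motifs were counted in the same 300 bases on both strands. The GC box GGGCGG was in 62.1% of member promoters, 71.6% of those marked in all libraries and 35.7% of all 32851 RefSeq promoters. The CCAAT box, CCAAT, was in 30.0%, 39.3% and 37.4%. The TATA box TATAAA was in 8.94%, 5.46% and 13.6%, and the homeobox core TAATTA in 4.04%, 1.90% and 5.29%. The E-box CAGATGG of NEUROD-type factors was in 4.04%, 2.88% and 5.30%, and that of MYC and USF, CACGTG, in 8.94%, 10.6% and 7.15%. The forkhead site TGTTTAC was in 2.77%, 2.36% and 3.65%, and the cyclic AMP response element TGACGTCA in 3.19%, 3.66% and 1.79%. The motifs do not contain one another. The member share was above that of all RefSeq promoters for the GC box, the E-box of MYC and USF and the cyclic AMP response element, and below it for the other motifs. For the GC box, that E-box and that element, the share at all windows was 69.1%, 10.3% and 3.41%, each above the member share. At windows marked only in alphaTC1 it was 49.2%, 9.19% and 3.78%. None of these differences was tested. Within the printed promoters, CAGATGG occurred in Ins1 and Iapp, and TGACGTCA and TGTTTAC in Pcsk1.

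Most members stood alone among the windows of the table. In table order, 886 had no member next to them, 88 pairs were adjacent, and 74 members fell in 20 runs of 3 or more. The 74 depended on the limits: they were 8 with a betaTC3 limit of 100, 171 with 25 and 49 with an alphaTC1 limit of 5, and 44 when neighbours had to lie within 100 kb. The longest run held 11 adjacent windows across 730503 bp of chromosome 11 (108921161 to 109651663), from Axin2 to Prkar1a, a regulatory subunit of protein kinase A. No alphaTC1 library passed 3.97 scaled reads anywhere in it. Input reads in this run were not examined, so low signal and low coverage in alphaTC1 cannot be told apart. Its highest windows were Prkar1a, with 1475 and 915 in betaTC3, Gna13, a G protein subunit, with 1169.9 and 1169.6, and Axin2, and the betaTC3 libraries differed by more at Prkar1a and Axin2 than at Gna13. Between them lay Wipi1, an autophagy protein gene, with 545 and 514, and Arsg, a sulfatase gene, with 442 and 366. The run does not hold with the limit of 100, since a window of Rgs9 had 91.0 and 79.0 and one of Amz2 67.1 and 125. Members also lay past its end. Among them was a window 384 bp from a RefSeq start of Map2k6 (chr11:110479524-110479924), with 205 and 214 in betaTC3. The run of 3 at Pdx1 reached to Cdx2, and another run of 3 was that of Glp1r.

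By chromosome, members made up 4.74% (chromosome 17) to 9.06% (chromosome 14) of the windows, with the exception of the Y chromosome, where 6 of 12 windows were members. Of these 6, 5 formed a run of 8621 bp in the lincRNA gene Gm47283, at 81.5 to 354 scaled reads in betaTC3 and at most 1.78 in alphaTC1. All 6 lay between 90744212 and 90808847, so they describe that stretch and not the Y chromosome as a whole. The 6 other Y windows were not alike. Gm21861, far from that stretch at 58854124, held 25.2, 26.6, 15.5 and 25.2 in alphaTC1 and 0 in both betaTC3 libraries. Gm21742 held 41.0, 45.3, 63.3 and 60.1 in alphaTC1 and 0 in both betaTC3 libraries, whereas Gm21860 was read in both lines, at 18.5, 15.1, 11.9 and 12.6 and 10.4 and 28.5.

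The authors' peak lists, 1 per library, gave the same division with few exceptions. They were called on the same libraries that chose the members, so this is a description and not separate evidence. All 1136 members overlapped a peak by at least 1 bp in the list of betaTC3 library 1 and 1135 in that of library 2. Of all windows, 82.4% and 83.2% did so. The alphaTC1 lists had a peak at 0.968% to 1.06% of members, beside 81.1% to 84.6% of all windows. For 1121 members both betaTC3 lists had a peak while all 4 alphaTC1 lists lacked one. The 14 members with a peak in an alphaTC1 list included Zfp125, Srp54b, Xlr3b and Gm21989, and all had at most 8.39 scaled reads in every alphaTC1 library of the table. Peaks at members had a median width of 862.5 and 897 bp in the betaTC3 lists, against 1547 and 1616 bp at windows marked in all libraries, and the authors' median fold was 13.8 and 12.9 against 34.5 and 32.0. A few member peaks were broad. The widest covered 11280 and 13139 bp at Pcdh17, 9893 and 12045 bp at Meox2, and 9480 and 9913 bp at Pdx1.

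The betaTC3 libraries gave similar values at most members. Over the members, Pearson's r between their log2 values was 0.952, given as a description since the windows share the same 2 libraries. In 1067 members the libraries differed by under 1.5 times, in 60 library 1 was higher by more than that and in 9 library 2 was. In 26 they differed by over 2 times, and library 1 was the higher in all 26. Gabbr2, a subunit of the GABA-B receptor, held 656 and 163 scaled reads, Gpr27, an orphan receptor, 605 and 199, and Src, a tyrosine kinase gene, 514 and 114. Of these 26, 23 lay within 1 kb of a gene start. The 16 with a RefSeq promoter had a median GC content of 74.0% and CpG ratio of 0.922, against 62.0% and 0.647 at the other members. Among all 12781 windows with at least 50 scaled reads in both betaTC3 libraries, library 1 was over 2 times library 2 in 438 and the reverse in 0. The part of this in the results was not tested, and without the 26 the share of members within 1 kb of a gene start was 49.2% and that of CpG-rich promoters 53.5%.

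**Figure D5:**
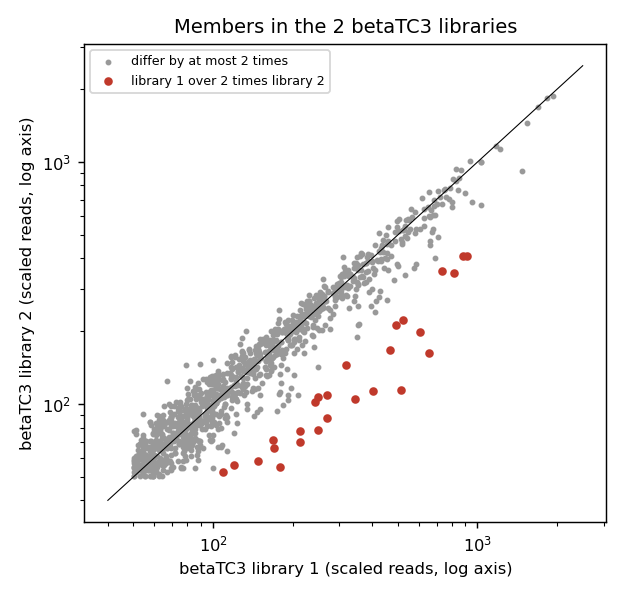
Scaled reads of the 1136 members in betaTC3 library 1 and library 2, on log axes, with the line of equality. Red points are the 26 members in which library 1 is over 2 times library 2; there is no member with the reverse.

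Whether any member was called after the knockdown of Smndc1 in alphaTC1 depended on the fit. By limma, 0 of 17641 windows passed an adjusted p of 0.05 between knockdown and empty vector (0% called), with 6169 windows, 260 of them members, at an unadjusted p under 0.05. The smallest adjusted p of a member in that limma fit was 0.0641. edgeR also called 0, with 2194 windows and 118 members at an unadjusted p under 0.05, and DESeq2 called 10 windows (0.0567%) and 0 members, with 1078 and 107. Limma called 63 members, 11 higher and 52 lower, among 122 windows (0.692% of all) with a pseudocount of 0.5. It called 83, 13 higher and 70 lower, among 163 (0.924%) without the intensity trend, and 17, 1 higher and 16 lower, among 31 (0.176%) with only the groups compared. The median log2 change on log2(scaled reads + 1) was -0.04 for members, whose values were held near 0 by the rule, and -0.37 for all windows. These medians depended on the scaling, and were 0.33 and 0.00 with libraries centred on their medians and 0 and 0 by edgeR. Summed over members, the empty-vector libraries held 1793 and 1593 scaled reads and the knockdown libraries 1354 and 1105. As shares of the reads in windows these were 0.0226%, 0.0194%, 0.0250% and 0.0165%, so the groups overlapped. At Pdx1 and Ins1 both knockdown libraries were at 0. At these levels, of a few reads per window, a gain under the knockdown of the size seen in betaTC3 would have been visible only in windows that the rule itself removes, so the count says nothing of such gains. Without knockdown library 2, limma called 6281 windows (35.6% of all), 243 higher and 6038 lower, and 217 members, 97 higher and 120 lower, and the spread of the single library left was taken from the other groups.

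The limits cut through a continuous range of values. Just inside the alphaTC1 limit, A730013G03Rik held 7.94, 9.77, 2.39 and 9.78 scaled reads in alphaTC1 and 87.0 and 94.2 in betaTC3. Just outside it, Sdc3, a syndecan gene, held 10.6, 5.33, 0 and 0 and 399 and 267, and Rasl10a held 10.6, 4.44, 8.36 and 4.19 and 67.1 and 63.8. At the betaTC3 limit, Slc25a21 was just inside with 50.3 and 50.4, while Slc6a19, an amino acid transporter gene, with 49.5 and 75.2, and Shisal2b, with 49.5 and 50.4, were just outside, all 3 at 0 in the 4 alphaTC1 libraries.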

How the data were processed

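The series holds 6 ChIP-seq libraries and 3 inputs, sequenced as 50 bp single reads per the labels' protocols. Per the submitters' processing notes the authors used MACS2 2.2.7.1, Picard 2.19.2 and Bowtie2 2.4.1 with build mm10 (GRCm38), at settings the sources used here do not give. The deposited table gives 1 normalised signal value per library and window. In each library 100% of the values were whole multiples of 1 step (tolerance 0.001), so reads were recovered. How the authors set the factors, and whether input was subtracted, is not given. The deposited peak lists hold the authors' score, a fold ratio, and −log10 p-values and q-values for each peak. Peaks were called per library, and of these columns the fold was used as a description only.

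Members were the windows with at most 10 scaled reads in each alphaTC1 library and at least 50 in both betaTC3 libraries. Members, gene lists and symbol patterns were chosen with earlier results of these data known. Distance runs from the window centre to the start of the assigned gene, and RefSeq promoters were those of the nearest start within 1 kb. Limma 3.58.1 was fitted on log2(scaled reads + 1) with 6 libraries in 1 model and an intensity trend, with p-values adjusted by the Benjamini-Hochberg method over 17641 windows at 0.05. It was tested on simulated data. edgeR 4.0.16 (quasi-likelihood) called 11968 windows between betaTC3 and the empty vector on the recovered read counts, and 0 between knockdown and empty vector; DESeq2 1.42.0 called 10917 and 10. Computations ran in R 4.3.3 and in Python 3.11.15 with scipy 1.17.1, matplotlib 3.10.9, numpy 2.4.6 and pandas 2.3.3.

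Named windows were the 10 highest in betaTC3 within 1 kb and the 6 highest beyond 10 kb, the highest 3 of each noncoding class, all members of the cell identity, receptor and nucleic acid sensing lists, the highest 3 within 10 kb of each other list, those nearest the limits, and the 3 longest runs; some of these are not reported here. Windows that are listed for other reasons (marker genes outside the rule, starts in pairs, hairpins, peak widths, libraries that differ) were chosen after their values were seen. Shares carry exact (Clopper-Pearson) 95% intervals, for counting error alone. Reads carried no molecular identifiers, so they may not stand for separate molecules.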

Additional observations from a re-analysis of the deposited data

How the results depend on the processing

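The 1136 members became 907 with an alphaTC1 limit of 5 and 1328 with 20, and 600 with a betaTC3 limit of 100 and 1792 with 25. With libraries scaled to equal medians the rule chose 1089 windows, 1076 of them members, and on recovered reads 1332, with 1130. The share within 1 kb of a gene start, 50.1%, was 56.0% with the limit of 100, 42.6% with 25, 47.1% on recovered reads, 54.8% at 2 kb and, chosen after seeing the data, 41.4% for any RefSeq start. From the window's first base, also chosen after seeing the data, it was 49.5%. The share beyond 10 kb, 29.6%, was 25.5% with the limit of 100, 33.8% with 25, and 20.6% at 20 kb. The protein-coding share, 61.3%, was 65.2% with the limit of 100. The 74 members in runs became 8 with the limit of 100, 171 with 25, 49 with an alphaTC1 limit of 5, and 44 when neighbours had to lie within 100 kb. With 1 window per gene the 3 shares stayed within their intervals.

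Leaving out each library in turn gave 1146 to 1293 members, of which 46.8% to 50.2% were within 1 kb, 29.3% to 31.4% beyond 10 kb and 60.6% to 61.4% protein coding, with 74 to 88 in runs. The limma count between betaTC3 and the empty vector, 9744, ranged from 6983 to 10641, and that between knockdown and empty vector from 0 to 6281, the last without knockdown replicate 2. The latter count was 122 with a pseudocount of 0.5, 163 without the trend, 31 with only the groups compared and 10 by DESeq2. Of the windows called between the lines 3893 were higher in betaTC3 and 5851 lower, against 6050 and 5623 after centring on medians, 6225 and 5743 by edgeR and 6073 and 4844 by DESeq2. Replicate numbers did not pair the libraries, with correlations of same-numbered deviations of -0.0079, 0.085 and -0.176. With the replicate number as a block limma called 9152 windows between the lines and 0 after knockdown. For 50 of the named members, 746 of 750 alternative values of the change from empty vector to betaTC3 kept direction and call. The other 4 kept the direction only, at Cacnb1 and Scgn without betaTC3 replicate 1 or without betaTC3 replicate 2. Depth limits what can be said of alphaTC1 at the members, where most values rest on a few reads.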
